A study of Mus musculus with 6 samples.

Results

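The 46 genes described here are those of transforming growth factor-beta (TGF-beta) signalling and of the contractile cytoskeleton, followed in mouse fibroblast-like synoviocytes in culture, which are mesenchymal cells lining the joint. A gene was taken where a probe set of the array carried its symbol alone in the platform annotation, and with several such probe sets the one with the highest mean over the 6 arrays was used. All 46 listed genes were found among 22180 genes measured, and no filter on level was applied. They comprise 16 signalling genes, 5 target genes with 2 transcription factor genes, and 23 contractile genes. Per the labels, cells came from knee synovium of C57BL6 mice, digested for 4 h with collagenase, and were used at passages 4 to 8. No animal age was stated. The Mock group (3 arrays) received an empty adenovirus. The Ad-Epas1 group (3 arrays) received an adenovirus carrying Epas1, the gene of the hypoxia-inducible transcription factor HIF-2alpha. Both groups thus carried virus, at a multiplicity of infection of 800 for 2 h, with 24 h of culture afterwards, and the labels do not name the promoter that drives Epas1. Replicates carry only numbers in the labels, with no animal or culture of origin. The p-values therefore measure only how these 6 samples vary, which may be technical.

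TGF-beta ligands are secreted in a latent form bound to latent TGF-beta binding proteins. Once released, they bring together a type II and a type I receptor, which phosphorylates SMAD2 and SMAD3; inhibitory SMADs and the SKI family damp the signal. Activins, dimers of inhibin beta chains, use related receptors and the same SMADs, and follistatin traps them. In fibroblasts the pathway is known for inducing a contractile state, in which alpha smooth muscle actin, calponins, tropomyosins and myosin assemble into stress fibres. Many of these genes are driven by serum response factor (SRF), whose partners sense free actin, and by YAP and TAZ with TEAD factors, which respond to tension.

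Values are log2 expression levels after RMA, a procedure that corrects background, gives the arrays nearly 1 distribution and summarises the probes of each probe set. Levels of different probe sets cannot be set against each other, and RMA hides any shift common to most genes. The array medians over all probe sets lay between 6.77 and 6.84. Olfactory and vomeronasal receptor genes, which synoviocytes should not express, served as a low reference: 95% of 1394 had a mean below 6.62. Epas1 stood at 8.67, 8.71 and 8.51 on Mock replicates 1, 2 and 3 and at 13.14, 13.15 and 13.11 on Ad-Epas1 replicates 1, 2 and 3, the direction the labels give.

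The labels describe cultures with over 90% CD90+ and under 1% CD14+ cells by flow cytometry. On the arrays, 11 of 11 fibroblast markers lay above 6.62 on 5 arrays and 10 of 11 on Ad-Epas1 replicate 3. Of 15 macrophage markers, 14 also lay above 6.62 on 5 arrays, and 9 did on Ad-Epas1 replicate 3. The mean level of the macrophage list was 11.14, 10.81 and 10.82 on Mock replicates 1, 2 and 3 and 10.74, 10.56 and 7.22 on Ad-Epas1 replicates 1, 2 and 3. Adgre1, the F4/80 antigen, named like the other markers here after its values were seen, stood at 12.32, 11.68 and 11.69 in Mock and at 12.66, 12.35 and 5.89 in Ad-Epas1. Of the 15 markers, 3 fell and none rose (20% falling, against 9.75% of all genes; limma). Mrc1, the mannose receptor, stood at 10.95, 10.02 and 9.96 in Mock and at 7.96, 7.93 and 6.51 in Ad-Epas1 (log2 fold change -2.84, adjusted p = 0.0094), lower on all 3 arrays. The complement genes C1qa (-2.05, adjusted p = 0.0089) and C1qc (-2.31, adjusted p = 0.049) also fell, C1qc with a call that ended without any array except Ad-Epas1 replicate 3 (highest adjusted p = 0.14). Without Ad-Epas1 replicate 3 these 3 and C1qb (-0.95, adjusted p = 5.1e-04) fell, and Cd14 rose by 1.48 (adjusted p = 0.0025). Ad-Epas1 replicate 3 thus stands apart from the other 5 arrays in the level of macrophage transcripts. The counts of calls, and the members whose call or value depends on that array, are given with and without it. Among 7 pericyte markers outside the members, 7 skeletal muscle markers and 6 endothelial markers, none passed the test of change (limma; at an unadjusted p under 0.05, 1 pericyte marker was lower and 2 endothelial markers were higher). Cspg4, a pericyte marker chosen for naming after its value was seen, stood at 8.78, 9.20 and 9.24 in Mock and at 7.90, 7.89 and 8.71 in Ad-Epas1, and the other 6 differed by between -0.25 and 0.20. When Ad-Epas1 replicate 3 was left out, Cspg4 fell (-1.17, adjusted p = 0.0024). The endothelial markers Tek (0.89, adjusted p = 9.7e-04) and Pecam1 (0.48, adjusted p = 0.038) then rose. Over all genes 10.3% rose and 14% fell in that setting. Tek lay below 6.62 on every array (5.57 to 6.58), and Pecam1 did on every Mock array (6.25 to 6.58), so these fold changes are not exact.

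**Figure D1:**
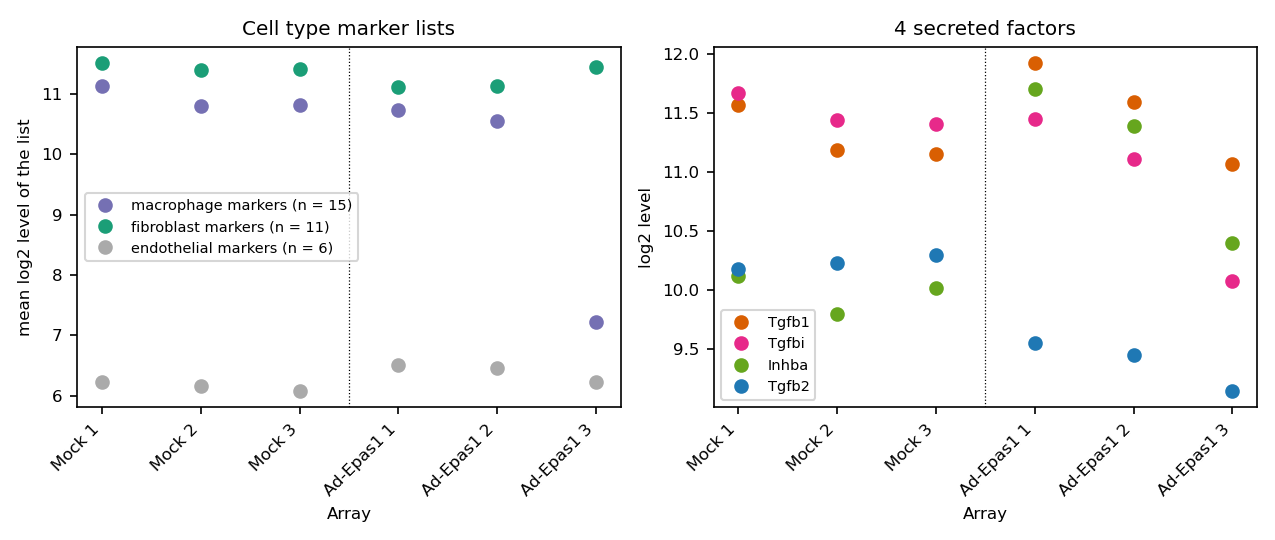
The left panel plots the mean log2 level of 15 macrophage, 11 fibroblast and 6 endothelial markers on each of the 6 arrays, and the right panel the log2 level of 4 members encoding secreted proteins. Macrophage markers fall to 7.22 on Ad-Epas1 replicate 3. All 4 members plotted, Tgfb1, Tgfbi, Inhba and Tgfb2, are also lowest there among the Ad-Epas1 arrays, as are 31.8% of all genes. Of all 46 members, 12 are lowest there (26.1%) and 23 highest (50%, against 45% of all genes).

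In Ad-Epas1 against Mock, 4 of the 46 members rose and 15 fell, while 27 stayed short of the threshold (limma, Benjamini-Hochberg adjusted p under 0.05 over all 22180 genes). That is 8.7% rising and 32.6% falling, where 6.57% of all genes rose and 9.75% fell. In either direction it is 41.3% of members against 16.3% of all genes. Both group means lay below 6.62 for 7730 of all 22180 genes and for 1 of the 46 members. Among the 11090 genes above the median level, 3558 were called, 1378 rising and 2180 falling. In that setting 8 of 16 signalling, 2 of 5 target and factor and 8 of 19 contractile members were called. Beside these genes the excess of members was smaller. The groups did not overlap for 23 members (50%), against 39.7% of all genes. Of these 23, 4 were higher in Ad-Epas1 (8.7%, against 21.3% of all genes) and 19 were lower (41.3%, against 18.4%). The median log2 fold change of the members was -0.26, beside 0.05 over all genes. Without Ad-Epas1 replicate 3, 5 members rose and 20 fell, and each of the 19 called over all arrays remained called. Over all genes the share called also grew in that setting, from 16.3% to 24.3% (10.3% rising and 14% falling). In bulk RNA, fewer cells of a type and less RNA per cell cannot be told apart.

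**Figure D2:**
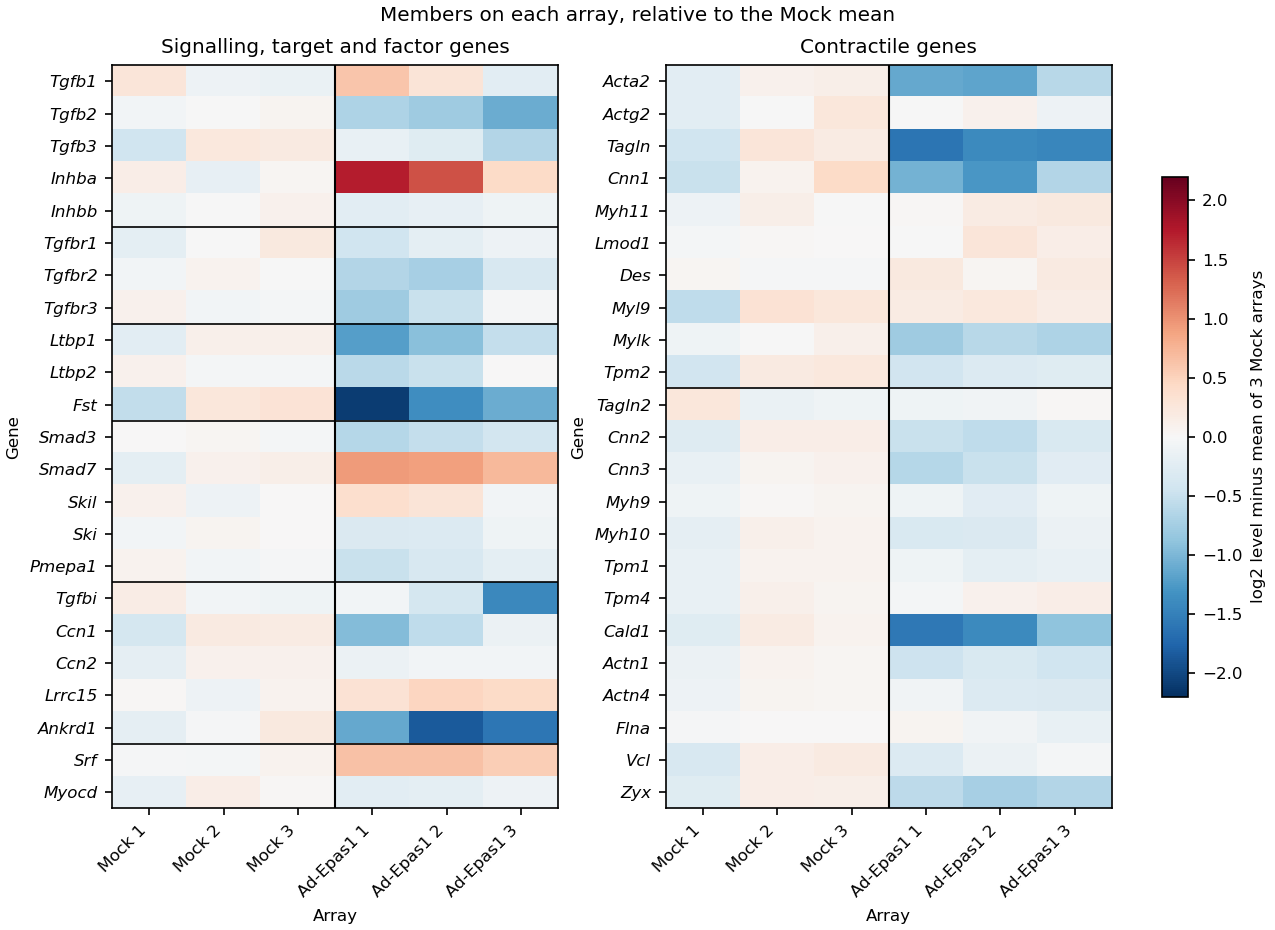
Colours give the log2 level of each member on each array minus its mean over the 3 Mock arrays, with signalling, target and factor genes on the left, contractile genes on the right, and lines between roles. Falls on all 3 Ad-Epas1 arrays are seen for Fst, Ankrd1, Tagln, Cald1 and Acta2, and rises for Smad7, Srf and Inhba.

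Among the signalling genes, Inhba and Smad7 rose and 6 fell: Tgfb2, Tgfbr2, Ltbp1, Fst, Smad3 and Pmepa1. The other 8 of 16 did not pass, and the median log2 fold change was -0.36. These counts are 12.5% rising and 37.5% falling, against 6.57% and 9.75% of all genes. Without Ad-Epas1 replicate 3 the counts were 3 and 9, beside 10.3% and 14% of all genes. The number called fell from 8 to 4 without Ad-Epas1 replicate 1, to 3 without Ad-Epas1 replicate 2 or Mock replicate 3 and to 2 without Mock replicate 2. Over all genes the share called in these 4 settings was 9.86%, 6.82%, 5.32% and 5.35%, in the same order of arrays. With all 6 arrays and only genes above the median level, 2 of 16 rose and 6 fell, beside 1378 and 2180 of 11090 genes.

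Of the 3 TGF-beta ligand genes, Tgfb2 fell and the others did not pass. Tgfb2 stood at 10.18, 10.23 and 10.30 on Mock replicates 1, 2 and 3 and at 9.55, 9.45 and 9.15 on Ad-Epas1 replicates 1, 2 and 3. All 3 Ad-Epas1 arrays were below all 3 Mock arrays, by 0.85 in the mean (10.23 ± 0.06 against 9.39 ± 0.21, SD, n = 3 each). The log2 fold change was -0.85 with an SE of 0.11 (adjusted p = 0.0056), a level 1.80-fold lower, and -0.73 without Ad-Epas1 replicate 3 (adjusted p = 0.0014). Tgfb1, the ligand made by many cell types including macrophages, stood at 11.57, 11.19 and 11.15 in Mock and at 11.92, 11.59 and 11.07 in Ad-Epas1. Its groups overlapped, because Ad-Epas1 replicate 3 lay below every Mock array. Its log2 fold change of 0.22 had a 95% interval from -0.31 to 0.76 (adjusted p = 0.53), and it was 0.45 without Ad-Epas1 replicate 3 (adjusted p = 0.085). The macrophage marker list was low on that same array, and its part in the Tgfb1 value was not tested. Tgfb3 stood at 10.80, 11.46 and 11.43 in Mock and at 11.08, 10.96 and 10.59 in Ad-Epas1, with Mock replicate 1 inside the Ad-Epas1 range (-0.36, 95% interval -0.86 to 0.14, adjusted p = 0.28; -0.22 without Ad-Epas1 replicate 3).

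Of the activin chain genes, Inhba rose and Inhbb did not pass. Inhba, which encodes the chain of activin A, stood at 10.12, 9.80 and 10.02 in Mock and at 11.70, 11.39 and 10.40 in Ad-Epas1. The groups did not overlap, although Ad-Epas1 replicate 3 was much nearer to Mock than replicates 1 and 2. The rise was 2.27-fold (log2 fold change 1.18, SE 0.32, adjusted p = 0.049). It was 1.56 on the log2 scale without Ad-Epas1 replicate 3 (adjusted p = 6.5e-04), and the call ended without any other array (adjusted p up to 0.16). Macrophage markers were low on the array where Inhba was lowest in its group, and their part in the value was not tested. Inhbb, the chain of activin B, stood at 7.94, 8.01 and 8.13 in Mock and at 7.79, 7.85 and 7.94 in Ad-Epas1 and did not pass (-0.17, 95% interval -0.36 to 0.02, adjusted p = 0.19). Inha, the inhibin alpha chain that pairs with either beta chain to form inhibins, is not a member and was chosen for naming after its value was seen. It stood at 8.85, 8.48 and 8.45 in Mock and at 10.46, 9.93 and 9.10 in Ad-Epas1 (log2 fold change 1.23, SE 0.33, adjusted p = 0.047), with Ad-Epas1 replicate 3 again the lowest of its group and a call that likewise ended without any other array (adjusted p up to 0.15).

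Of the receptor genes, Tgfbr2, the ligand-binding kinase, fell. It stood at 10.56, 10.69 and 10.61 in Mock and at 9.97, 9.88 and 10.26 in Ad-Epas1, so that all 3 Ad-Epas1 arrays were lower (log2 fold change -0.58, SE 0.11, adjusted p = 0.016). Tgfbr1, the partner kinase that phosphorylates SMADs, stood at 9.11, 9.33 and 9.55 against 8.90, 9.12 and 9.21, with overlapping groups (-0.25, 95% interval -0.57 to 0.07, adjusted p = 0.24). Tgfbr3, the co-receptor betaglycan, stood at 11.00, 10.85 and 10.87 in Mock and at 10.13, 10.41 and 10.88 in Ad-Epas1. Ad-Epas1 replicate 3 alone lay among the Mock values, and the change of -0.43 (adjusted p = 0.15) became -0.64 without it (adjusted p = 0.0067). The call of Tgfbr2 ended without Ad-Epas1 replicate 1 or 2 or Mock replicate 2 or 3 (adjusted p up to 0.076).

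Outside the cell, follistatin and a latency protein fell. Fst, the activin trap, stood at 10.76, 11.54 and 11.61 in Mock and at 9.21, 9.94 and 10.22 in Ad-Epas1. It was lower on all 3 Ad-Epas1 arrays, and 2.85-fold lower in the mean (log2 fold change -1.51, SE 0.32, adjusted p = 0.023; -1.72 without Ad-Epas1 replicate 3). Mock replicate 1 lay nearest to the Ad-Epas1 values. Fstl3, a related activin-binding gene outside the members, named after its value was seen, went the other way. It rose without overlap (log2 fold change 0.46, SE 0.10, adjusted p = 0.027), with a call that ended without Ad-Epas1 replicate 1 or 2 or Mock replicate 2 or 3 (adjusted p up to 0.11). Ltbp1, which binds latent TGF-beta and places it in the matrix, stood at 10.34, 10.69 and 10.69 in Mock and at 9.37, 9.65 and 10.04 in Ad-Epas1. It was 1.85-fold lower without overlap (log2 fold change -0.88, SE 0.19, adjusted p = 0.023; -1.06 without Ad-Epas1 replicate 3). Ltbp2, a matrix protein of the same family that does not bind latent TGF-beta, stood at 11.90, 11.76 and 11.77 against 11.22, 11.32 and 11.82. Its Ad-Epas1 replicate 3 lay among the Mock arrays (-0.36, adjusted p = 0.17, and -0.54 without that array, adjusted p = 0.0048). The calls of Fst and Ltbp1 ended without Ad-Epas1 replicate 2, Mock replicate 2 or Mock replicate 3, and that of Ltbp1 also without Ad-Epas1 replicate 1 (adjusted p up to 0.095 for each).

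Inside the cell, the transducer gene Smad3 fell while the feedback inhibitor gene Smad7 rose. Smad3 stood at 10.09, 10.13 and 10.03 in Mock and at 9.46, 9.56 and 9.68 in Ad-Epas1. The 3 Ad-Epas1 arrays lay below Mock with a small spread in both groups (log2 fold change -0.51, SE 0.08, adjusted p = 0.0088, 1.43-fold). Smad7, which targets the receptors for degradation and is itself a TGF-beta target, stood at 9.16, 9.47 and 9.52 in Mock and at 10.31, 10.29 and 10.09 in Ad-Epas1. It was 1.80-fold higher, again without overlap (log2 fold change 0.85, SE 0.12, adjusted p = 0.0062). Pmepa1, a membrane protein that TGF-beta induces and that limits SMAD signalling, stood at 10.50, 10.36 and 10.39 against 9.93, 10.06 and 10.20 (log2 fold change -0.35, SE 0.09, adjusted p = 0.043). Its call ended without any array except Ad-Epas1 replicate 3 (highest adjusted p = 0.13), and that of Smad3 without Mock replicate 2 (adjusted p = 0.051).

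The co-repressor genes Ski and Skil, whose proteins block SMAD complexes, did not pass. Ski stood at 10.28, 10.39 and 10.34 in Mock and at 10.02, 10.03 and 10.23 in Ad-Epas1 (-0.24, 95% interval -0.44 to -0.04, adjusted p = 0.096). Skil stood at 8.55, 8.36 and 8.48 against 8.84, 8.75 and 8.40 (0.20, 95% interval -0.11 to 0.50, adjusted p = 0.33). For Skil the groups overlapped through Ad-Epas1 replicate 3. Without that array Ski fell (-0.31, adjusted p = 0.023) and Skil rose (0.33, adjusted p = 0.035).

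**Figure D3:**
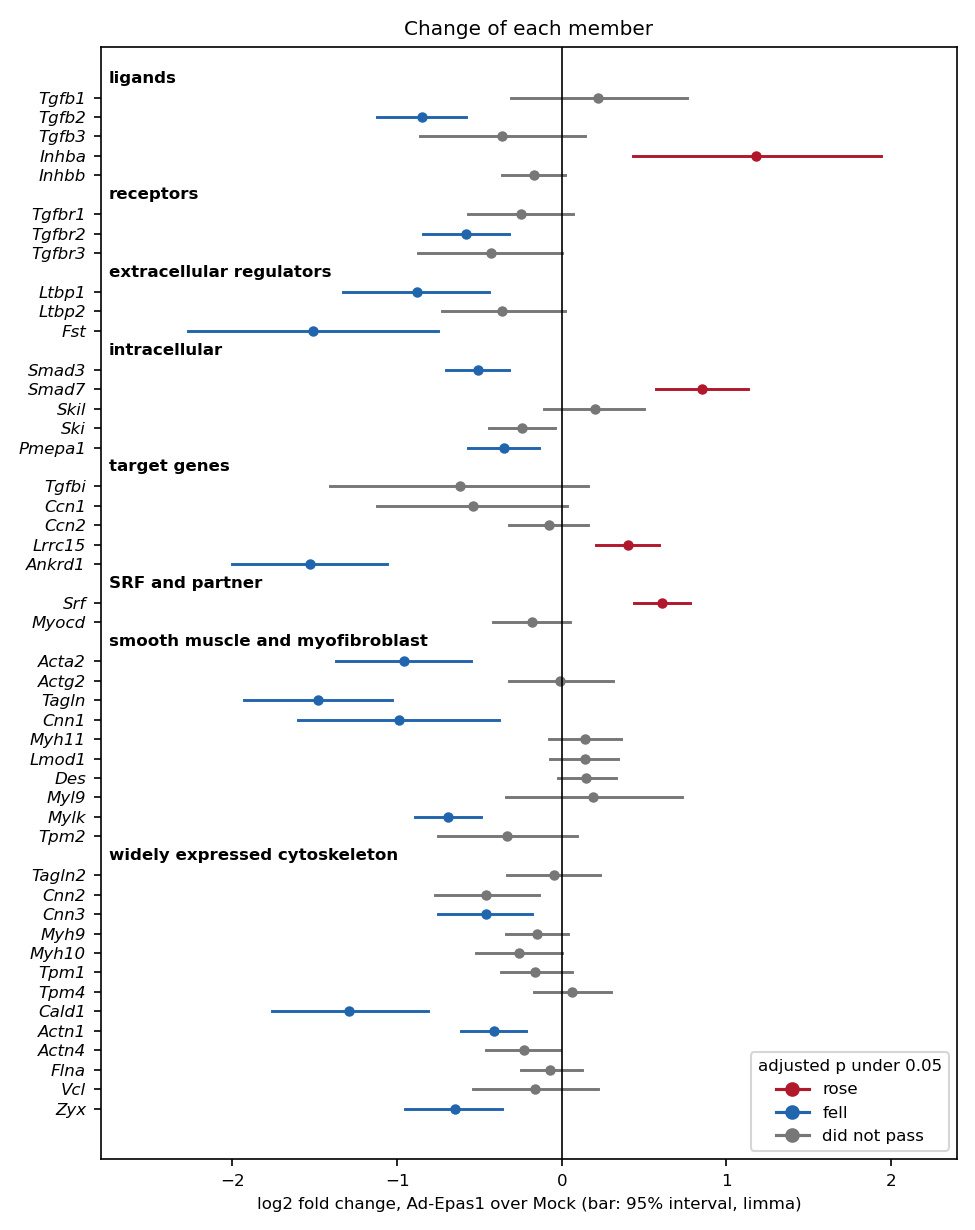
Points give the log2 fold change of each of the 46 members, Ad-Epas1 over Mock, with 95% intervals from limma as bars; red marks members that rose, blue those that fell at an adjusted p under 0.05, and grey those that did not pass. The 15 falls include 8 contractile genes, and the 4 rises are Inhba, Smad7, Lrrc15 and Srf.

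Of the 5 target genes, Ankrd1 fell and Lrrc15 rose. Counted with the 2 factor genes, 2 of 7 rose (28.6%, against 6.57% of all genes) and 1 fell (14.3%, against 9.75%). Ankrd1, a nuclear and sarcomeric ankyrin repeat protein often used as a readout of YAP and TAZ, stood at 9.77, 9.94 and 10.19 in Mock and at 8.83, 8.11 and 8.37 in Ad-Epas1. All Ad-Epas1 arrays were lower, by 2.88-fold in the mean (log2 fold change -1.53, SE 0.20, adjusted p = 0.0050). Lrrc15, a surface protein of TGF-beta-exposed fibroblasts, stood at 6.69, 6.56 and 6.75 against 6.98, 7.14 and 7.08 (log2 fold change 0.40, SE 0.08, adjusted p = 0.020). These Lrrc15 levels are close to the 6.62 of the receptor reference, so its fold change is not exact, and its call ended without Ad-Epas1 replicate 2, Mock replicate 2 or Mock replicate 3 (adjusted p up to 0.087).

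None of the other 3 targets passed over all arrays. Ccn1, a secreted protein induced by SRF and YAP, stood at 12.22, 12.81 and 12.78 in Mock and at 11.65, 12.05 and 12.47 in Ad-Epas1, where replicate 3 lay above Mock replicate 1 (-0.54, adjusted p = 0.17, and -0.75 without Ad-Epas1 replicate 3, adjusted p = 0.042). Ccn2, connective tissue growth factor, stood at 12.07, 12.37 and 12.37 against 12.14, 12.22 and 12.21 (-0.08, 95% interval -0.32 to 0.16, adjusted p = 0.62). Tgfbi, a secreted adhesion protein also made by macrophages, stood at 11.67, 11.44 and 11.41 in Mock and at 11.45, 11.11 and 10.08 in Ad-Epas1. The lowest value was that of Ad-Epas1 replicate 3. The change was -0.62 over all arrays (95% interval -1.41 to 0.16, adjusted p = 0.24) and -0.22 without that array (adjusted p = 0.28); macrophage markers were low on the same array, and their part in it was not tested.

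Srf, the factor that binds the CArG box of many contractile genes, rose. It stood at 9.49, 9.46 and 9.59 in Mock and at 10.16, 10.15 and 10.05 in Ad-Epas1, with a wide gap between the groups relative to their spread (9.51 ± 0.07 against 10.12 ± 0.06, SD, n = 3 each). The rise was 1.52-fold (log2 fold change 0.61, SE 0.07, adjusted p = 0.0038). Myocd, its smooth muscle partner, lay between 6.79 and 7.11 in Mock and between 6.74 and 6.86 in Ad-Epas1, near the receptor reference (-0.18, 95% interval -0.42 to 0.05, adjusted p = 0.24).

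Promoter sequence was examined because SRF, SMAD and TEAD factors bind known letters. RefSeq promoter windows (GRCm38.p6, 250 bases before to 50 after a start site) were found for 35 of the 46 members, 38 windows in all, and both strands were searched. The 11 members without a window were not searched: Tgfb3, Tgfbr3, Fst, Smad7, Skil, Pmepa1, Ccn2, Myocd, Actg2, Tagln and Myh11. The CArG box, 2 C, 6 A or T bases and 2 G, was in 4 of the 38 windows (10.5%, against 1.63% of 32851 windows of all genes): those of Srf, Myl9, Cnn2 and Vcl. With at most 1 other base among the central 6, a setting added after the data were seen, it was in 7 windows (18.4%, against 9.98%), now also those of Acta2, Tgfbr2 and Ltbp1. The following stretches run 5′ to 3′ on the gene's strand from -170 to -1 before the start site, with CArG letters of the wider definition in capitals. They are shown for the risen Srf, the fallen Acta2, and Myl9 and Cnn2, which did not pass, to set side by side genes that share these letters.
Srf (chr17:46556163-46556332, minus strand): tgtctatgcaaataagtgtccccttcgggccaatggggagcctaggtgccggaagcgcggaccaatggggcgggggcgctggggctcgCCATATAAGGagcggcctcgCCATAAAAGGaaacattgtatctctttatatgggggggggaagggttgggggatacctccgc
Acta2 (chr19:34255374-34255543, minus strand): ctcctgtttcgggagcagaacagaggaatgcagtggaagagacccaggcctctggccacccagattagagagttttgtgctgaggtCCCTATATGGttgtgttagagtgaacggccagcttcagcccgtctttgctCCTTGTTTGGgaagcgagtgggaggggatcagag
Myl9 (chr2:156775294-156775463, plus strand): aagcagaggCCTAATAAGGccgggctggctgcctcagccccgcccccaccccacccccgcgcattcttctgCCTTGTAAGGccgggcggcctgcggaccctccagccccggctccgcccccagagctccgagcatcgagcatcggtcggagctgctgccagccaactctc
Cnn2 (chr10:79988430-79988599, plus strand): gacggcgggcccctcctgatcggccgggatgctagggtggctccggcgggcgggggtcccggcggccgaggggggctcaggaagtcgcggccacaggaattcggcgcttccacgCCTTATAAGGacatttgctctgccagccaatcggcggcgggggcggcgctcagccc

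The matches begin at -82 and -62 in Srf, at -84 and -34 in Acta2, at -161 and -99 in Myl9 and at -56 in Cnn2. The log2 fold changes of these genes, which were chosen to differ in their call, were 0.61, -0.96, 0.19 and -0.46. The remaining carriers under the wider definition, Vcl, Tgfbr2 and Ltbp1, were at -0.16, -0.58 and -0.88. Of all 7 carriers, Srf rose, Acta2, Tgfbr2 and Ltbp1 fell, and Myl9, Cnn2 and Vcl did not pass. Of all 46 members, 41.3% were called, against 16.3% of all genes. GGAATG, the core bound by TEAD factors, was in 12 of the 38 windows (31.6%, against 14.7% of all windows), of which 2 belong to target genes (Ccn1, Ankrd1) and 10 to contractile genes. Of these 12, Ankrd1, Acta2, Mylk and Cald1 fell and 8 did not pass, where 32.6% of all members and 9.75% of all genes fell. Ankrd1 holds it at -210 and -123, shown in capitals in a stretch of 110 bases that starts at -220.
Ankrd1 (chr19:36119955-36120064, minus strand): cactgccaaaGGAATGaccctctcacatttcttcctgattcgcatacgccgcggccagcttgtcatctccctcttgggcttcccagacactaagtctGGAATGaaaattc

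CAGAC, the core of the SMAD-bound CAGA box, was in 55.3% of member windows against 49.6% of all. Of the hypoxia response element cores, ACGTG was in 13.2% against 19.6% and GCGTG in 55.3% against 32.4%. The GCGTG windows include those of Srf and Inhba, which rose, and of Tgfbr2, Smad3, Cnn1, Cnn3 and Actn1, which fell. The other 14 members with GCGTG did not pass. Called were 41.3% of all 46 members and 16.3% of all genes. A match is a run of letters and no evidence of binding.

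Among the 23 contractile genes there were 8 that fell and none that rose (limma; at an unadjusted p under 0.05, 10 were lower and none higher). The falls are 34.8% of the group, against 9.75% of all genes, and the median log2 fold change was -0.23. Among genes above the median level alone, 8 of 19 contractile members fell, beside 2180 of 11090 genes. Without Ad-Epas1 replicate 3, 9 of the 23 fell and none rose, where 14% of all genes fell. Within Mock, replicate 1 had the lowest level for 21 of the 23 genes (91.3%, against 35.1% of all genes), and the median deviation of the group from the Mock mean was -0.16, 0.08 and 0.08 on Mock replicates 1, 2 and 3. On Ad-Epas1 replicates 1, 2 and 3 it was -0.31, -0.29 and -0.17. Without Mock replicate 1, 10 contractile genes fell, where 7.83% of all genes fell. Without Ad-Epas1 replicate 1 or 2 the number was 5 or 4 (6.1% or 4.17% of all genes), and without Mock replicate 2 or 3 it was 3 (3.44% of all genes in each).

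Among the 10 smooth muscle and myofibroblast genes, Tagln, Acta2, Cnn1 and Mylk fell (40%, against 9.75% of all genes). Tagln, the actin-bundling protein transgelin, stood at 9.51, 10.22 and 10.13 in Mock and at 8.35, 8.56 and 8.52 in Ad-Epas1. Mock replicate 1 was the lowest of its group but still well above every Ad-Epas1 array (log2 fold change -1.48, SE 0.19, adjusted p = 0.0048, 2.78-fold). Acta2, alpha smooth muscle actin and the standard mark of myofibroblasts, stood at 12.23, 12.55 and 12.59 against 11.33, 11.30 and 11.85. It was lower on all 3 Ad-Epas1 arrays, least so on replicate 3 (log2 fold change -0.96, SE 0.17, adjusted p = 0.014, 1.95-fold; -1.14 without that array). Cnn1, calponin 1, an actin-binding inhibitor of myosin, stood at 8.38, 8.95 and 9.30 against 7.83, 7.60 and 8.23, where Mock replicate 1 and Ad-Epas1 replicate 3 nearly met (log2 fold change -0.99, SE 0.26, adjusted p = 0.045). Mylk, myosin light chain kinase, stood at 7.37, 7.45 and 7.58 against 6.69, 6.86 and 6.78, with a small spread in both groups (log2 fold change -0.69, SE 0.08, adjusted p = 0.0042). The Ad-Epas1 levels of Mylk are close to the receptor reference of 6.62, so its fold change is not exact. The calls of Acta2 and Cnn1 ended without Ad-Epas1 replicate 2, Mock replicate 2 or Mock replicate 3, and that of Cnn1 also without Ad-Epas1 replicate 1 (the highest adjusted p was 0.068 for Acta2 and 0.14 for Cnn1); that of Cnn1 ended too with the trend and robust prior and with further quantile normalization.

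The other 6 genes of this kind did not pass. Myl9, the regulatory myosin light chain that MYLK phosphorylates, stood at 9.94, 10.82 and 10.75 in Mock and at 10.69, 10.74 and 10.67 in Ad-Epas1. Mock replicate 1 alone was low, and the other 5 arrays lay together (0.19, 95% interval -0.34 to 0.73, adjusted p = 0.58). Tpm2, beta-tropomyosin, stood at 8.24, 8.86 and 8.89 against 8.25, 8.37 and 8.40. Its groups overlapped through Mock replicate 1 (-0.33, adjusted p = 0.25), without which it fell by 0.54 (adjusted p = 0.015). Actg2, gamma smooth muscle actin, Myh11, smooth muscle myosin heavy chain, Lmod1, leiomodin 1, and Des, desmin, are markers of differentiated smooth muscle. Their levels on the 6 arrays ranged from 6.41 for Des to 7.65 for Myh11, near the receptor reference, and Des lay below it in the means of both groups. Their log2 fold changes were -0.01 for Actg2, 0.14 for Myh11, 0.14 for Lmod1 and 0.15 for Des, with adjusted p-values between 0.20 and 0.97.

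**Figure D4:**
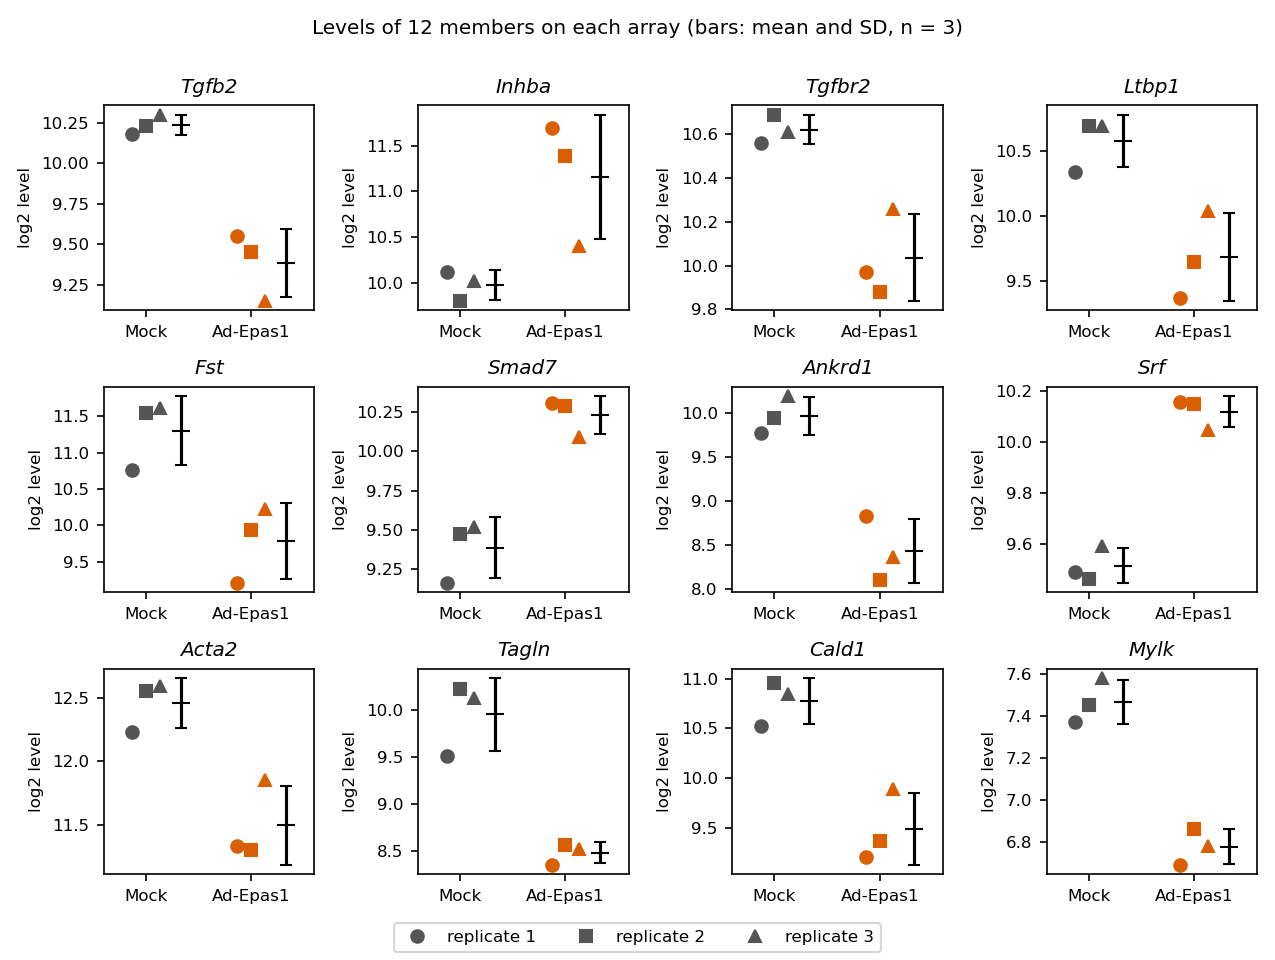
Points give the log2 level of 12 members on each array by replicate (circle, square and triangle for replicates 1, 2 and 3), and black bars the mean and SD over 3 arrays; each panel has its own axis. The 12 were taken from the called members, none of which had overlapping groups, so the lack of overlap in every panel came with that choice. Over all 46 members the groups did not overlap for 50%, against 39.7% of all genes. Inhba, Smad7 and Srf are higher in Ad-Epas1 and the other 9 lower.

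Of the 13 more widely expressed cytoskeleton genes, Cald1, Zyx, Cnn3 and Actn1 fell (30.8%, against 9.75% of all genes). Cald1, caldesmon, which holds actin and tropomyosin together and restrains myosin, stood at 10.52, 10.96 and 10.85 in Mock and at 9.20, 9.37 and 9.89 in Ad-Epas1. The fall was 2.44-fold, without overlap (log2 fold change -1.29, SE 0.20, adjusted p = 0.0089; -1.49 without Ad-Epas1 replicate 3). Zyx, zyxin of focal adhesions, stood at 11.00, 11.42 and 11.40 against 10.69, 10.54 and 10.63. Its Ad-Epas1 arrays lay close together below Mock (log2 fold change -0.65, SE 0.12, adjusted p = 0.017). Cnn3, acidic calponin, stood at 12.35, 12.57 and 12.60 against 11.87, 12.01 and 12.25 (log2 fold change -0.46, SE 0.12, adjusted p = 0.044). Actn1, the actin cross-linker alpha-actinin 1, stood at 12.09, 12.29 and 12.26 against 11.76, 11.88 and 11.77 (log2 fold change -0.41, SE 0.08, adjusted p = 0.019). Neither gene's groups overlapped, and both changes were under 1.5-fold. The calls of Zyx, Cnn3 and Actn1 ended without Mock replicate 2 or 3, those of Cnn3 and Actn1 without Ad-Epas1 replicate 1, and those of Zyx and Cnn3 without Ad-Epas1 replicate 2 (the highest adjusted p was 0.076 for Zyx, 0.15 for Cnn3 and 0.085 for Actn1).

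The remaining 9 did not pass. Cnn2, calponin 2, stood at 11.24, 11.66 and 11.66 in Mock and at 11.03, 10.96 and 11.19 in Ad-Epas1, and was lower on all 3 arrays (-0.46, 95% interval -0.77 to -0.14, adjusted p = 0.062). It passed without Ad-Epas1 replicate 3 (-0.52, adjusted p = 0.039) and without Mock replicate 1 (-0.60, adjusted p = 0.017). The non-muscle myosin genes Myh9 and Myh10, the motors of stress fibres, were at -0.15 (95% interval -0.34 to 0.04) and -0.26 (-0.52 to 0.00). The tropomyosin genes Tpm1 and Tpm4 were at -0.16 (-0.37 to 0.06) and 0.06 (-0.17 to 0.30). Actn4, alpha-actinin 4, was at -0.23 (-0.46 to -0.01) and Flna, the cross-linker filamin A, at -0.07 (-0.25 to 0.12). Vcl, vinculin of adhesions, was at -0.16 (-0.54 to 0.22) and Tagln2, transgelin 2, at -0.05 (-0.33 to 0.23). The intervals of Actn4, Flna, Vcl and Tagln2 leave out falls as large as those of Cald1 and Tagln. Those of Actn4 and Vcl include a fall as large as that of Actn1 (-0.41), which was called.

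Differences between related members were taken within each array for 17 pairs. An exact permutation test of 3 against 3 arrays cannot go below p = 0.1, so no pair could pass a threshold of 0.05, and after adjustment over the 17 pairs the smallest p was 0.19. For 9 pairs the within-array differences of the groups did not overlap, and the share among pairs of other genes was not determined. The difference Tagln minus Tagln2 was -1.47, -0.36 and -0.50 on the Mock arrays and -2.29, -2.09 and -2.23 on the Ad-Epas1 arrays (exact two-sided permutation p = 0.1). Inhba minus Inhbb was 2.18, 1.79 and 1.89 in Mock and 3.91, 3.54 and 2.46 in Ad-Epas1 (exact p = 0.1). Tgfb1 minus Tgfb2 was 1.39, 0.96 and 0.85 against 2.37, 2.14 and 1.91 (exact p = 0.1). In these 3 pairs every Ad-Epas1 array lay on the same side of all Mock arrays. Acta2 and Actg2, Ltbp1 and Ltbp2, Cnn1 and Cnn2, Tgfb2 and Tgfb3, Tpm1 and Tpm4, and Actn1 and Actn4 also parted without overlap. Actg2 lay near the receptor reference and changed by -0.01, so the difference Acta2 minus Actg2 follows Acta2. In contrast, Cnn2 minus Cnn3 changed by 0.01 (exact p = 1).

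Outside the members, 31 genes of the TGF-beta pathway were measured. Of these 10 rose (32.3%, against 6.57% of all genes) and 6 fell (19.4%, against 9.75%), with a median log2 fold change of 0.16. Among genes above the median level, 17 of 29 of the list were called, beside 3558 of 11090 genes in all. Cd109, a surface co-receptor that binds TGF-beta and promotes removal of its receptors, stood at 10.40, 10.22 and 10.32 in Mock and at 12.01, 11.94 and 12.01 in Ad-Epas1. The rise was 3.20-fold (log2 fold change 1.68, SE 0.07, adjusted p = 3.1e-04), with the groups far apart relative to their spread. Tgif1, a co-repressor of SMADs, rose by 0.89 (SE 0.11, adjusted p = 0.0044). Smurf1, a ubiquitin ligase of the pathway, rose by 0.63 (SE 0.08, adjusted p = 0.0051), and Lemd3, a nuclear envelope protein that binds SMADs, rose by 0.65 (SE 0.10, adjusted p = 0.0077). The integrin chain gene Itgb5, whose product helps to release latent TGF-beta, fell by 0.60 (SE 0.08, adjusted p = 0.0060). Thbs1, thrombospondin 1, an activator of latent TGF-beta named after its value was seen, lay between 13.28 and 13.49 in Mock and at 12.78 or below in Ad-Epas1 (log2 fold change -1.02, SE 0.19, adjusted p = 0.016). Its call ended without Ad-Epas1 replicate 2, Mock replicate 2 or Mock replicate 3 (adjusted p up to 0.071). Likewise named with their values known, the integrin chain gene Itgav rose by 0.62 (SE 0.13, adjusted p = 0.021). Smad6, which encodes an inhibitory SMAD, fell by 0.43 (SE 0.11, adjusted p = 0.042). Both calls ended without Ad-Epas1 replicate 1 or 2 or Mock replicate 2 or 3 (adjusted p up to 0.088 for Itgav and 0.15 for Smad6). Leaving out Ad-Epas1 replicate 3, 11 genes of the list rose and 7 fell (10.3% and 14% of all genes). The 16 called became 9 and 6 when Ad-Epas1 replicates 1 and 2 were left out in turn, 10 without Mock replicate 1 and 5 without Mock replicate 2 or 3. Over all genes the share called in these settings was 9.86%, 6.82%, 12.6%, 5.35% and 5.32%, in the same order of arrays.

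A further 40 actin, SRF and YAP genes were measured. Of these 6 rose (15%, against 6.57% of all genes) and 6 fell (15%, against 9.75%), with a median of -0.05. Among genes above the median level, 12 of 38 of the list were called, beside 3558 of 11090 genes in all. The list was thus called about as often as genes above the median level. Fermt2, kindlin-2, an activator of integrins, rose by 0.74 (SE 0.08, adjusted p = 0.0030), Pxn, paxillin of adhesions, by 0.44 (SE 0.06, adjusted p = 0.0074) and Wwtr1, which encodes TAZ, by 0.72 (SE 0.12, adjusted p = 0.010). Myl12b, a non-muscle regulatory myosin light chain, fell by 0.73 (SE 0.10, adjusted p = 0.0052) and Lpp, a zyxin relative, by 0.42 (SE 0.07, adjusted p = 0.013). Mrtfa, an actin-sensing partner of SRF named after its value was seen, stood at 9.64, 9.84 and 9.80 in Mock. In Ad-Epas1 it stood at 9.32, 9.14 and 9.34 (log2 fold change -0.49, SE 0.09, adjusted p = 0.015). Mrtfb of the same list, likewise named with its value known, did not pass (limma log2 fold change 0.00, adjusted p = 0.98). Its levels were 10.05, 9.87 and 9.93 in Mock and 10.08, 9.96 and 9.83 in Ad-Epas1. The calls of Wwtr1, Lpp and Mrtfa ended when Mock replicate 2 or 3 was left out, and those of Lpp and Mrtfa also with Ad-Epas1 replicate 2 left out (adjusted p up to 0.054, 0.067 and 0.073). With Ad-Epas1 replicate 3 left out, 7 rose and 9 fell (10.3% and 14% of all genes). The 12 called became 8 without Mock replicate 1, 7 and 4 without Ad-Epas1 replicates 1 and 2, and 3 without Mock replicate 2 or 3. Over all genes the share called in these settings was 12.6%, 9.86%, 6.82%, 5.35% and 5.32%, in the same order of arrays.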

How the data were processed

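Per the submitters' processing notes, the authors deposited log2 expression values made by RMA in Affymetrix Expression Console 1.3.1 (300 ng of total RNA per array, per the labels). Sources used here name no genome build. Of 41345 probe sets, 23521 had 1 gene symbol, 1814 several and 16010 none; only the first kind was used, which gave 22180 genes. Samples were grouped by title. The contrast of Ad-Epas1 over Mock was fitted with limma 3.58.1 (lmFit, eBayes; R 4.3.3), and two-sided p-values were adjusted by Benjamini-Hochberg across the 22180 genes, with calls at 0.05; the fit was tested on simulated data. The number of arrays limits the precision. All members, Epas1 and the 5 genes with the smallest p-values in each of the 2 further pathway lists were named by rule; other genes, markers included, were named with their values known. Some genes of the further lists are not reported here. The members and lists were chosen with earlier results of these data known. Promoter sequences come from RefSeq (GRCm38.p6). Alternatives were a replicate block, each array left out, 2 other scalings, a level filter, another prior, array weights and other uses of probe sets.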

Additional observations from a re-analysis of the deposited data

How the results depend on the processing

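Of the 19 called members, 7 kept their call and none changed sign in every alternative that could be run for them: Tgfb2, Smad7, Ankrd1, Srf, Tagln, Mylk (not tested under the filter on level) and Cald1. With single arrays left out, the called genes numbered 1181 to 5390 of all genes (3620 with all arrays), 2 to 12 of the signalling members (8), 2 to 4 of the target and factor members (3), 3 to 10 of the contractile members (8), 5 to 18 of the other TGF-beta genes (16) and 3 to 16 of the other actin, SRF and YAP genes (12). Array weights gave 7791 genes in all, 5 target and factor members, 14 contractile members, none of them rising, and 22 other actin genes. Leaving out Mock replicate 1 together with Ad-Epas1 replicate 3, chosen after the data were seen, there were 6000 genes, 15 signalling members and 5 target and factor members. Same-numbered samples correlated in their deviations at 0.341, -0.189 and 0.214, so the numbers were not taken to pair them, and not every sample correlated best with its own number. With the replicate block 3108 genes, 7 signalling, 3 target and factor and 8 contractile members passed; the calls of Pmepa1 and Lrrc15 ended under it. Further quantile normalization ended the calls of Pmepa1 and Cnn1, and the trend and robust prior those of Inhba and Cnn1 (Cnn2 then passed); centring the arrays, the mean over probe sets and testing every probe set changed no member's call. The 3 against 3 design and levels near the receptor reference limit the Lrrc15, Mylk, Myocd and Des values.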

Other observations

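A dimmer probe set existed for 3 members. That of Ccn2 lay between 6.45 and 6.88 on the 6 arrays (log2 fold change 0.04, adjusted p = 0.85), that of Tagln2 between 6.85 and 7.04 (0.05, adjusted p = 0.67) and that of Tpm4 between 10.90 and 11.10 (-0.07, adjusted p = 0.59), so none of the 3 passed with either probe set (limma over all probe sets with 1 symbol). In the fibroblast marker list, whose genes were named after their values were seen, Pdgfrb, the receptor of PDGF-B and a mark of mesenchymal cells, stood at 11.55, 11.77 and 11.81 in Mock and at 10.40, 10.30 and 10.82 in Ad-Epas1 (log2 fold change -1.20, adjusted p = 0.0044). Pdpn, podoplanin of the synovial lining, rose by 0.73 (adjusted p = 0.0041), and Prg4, lubricin, by 0.55 (adjusted p = 0.028). Col3a1, a fibrillar collagen, fell by 0.89 (adjusted p = 0.029). The call of Prg4 ended without Ad-Epas1 replicate 1 or 2 or Mock replicate 2 or 3 (highest adjusted p = 0.11), and that of Col3a1 without any array except Ad-Epas1 replicate 3 (highest adjusted p = 0.10). Of the 11 markers, 2 rose and 2 fell (18.2% each, against 6.57% and 9.75% of all genes). Without Ad-Epas1 replicate 3, Thy1, Col1a1 and Col1a2 also fell, which made 5 (14% of all genes fell). Without Mock replicate 1 only Pdgfrb fell (7.83% of all genes).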
